A study of Mus musculus with 4 samples.

Results

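The transcripts of oxidative phosphorylation were followed in sorted dorsal root ganglion (DRG) cells, and those of the nuclear genome were set against those of the mitochondrial genome across neuron subtypes and injury states. Members were the genes whose symbols begin with Nduf, Uqcr, Atp5, Sdh, mt-Nd, mt-Co, mt-Cytb, or mt-Atp, or with Cox and a digit from 4 to 8, together with Usmg5. Of 31053 genes in the count matrices, 111 met this rule, and the 108 with at least 100 unique molecular identifiers (UMIs) over the 4 libraries were kept. Of these, 13 are encoded by the mitochondrial genome and 95 by nuclear chromosomes, namely 38 genes of complex I, 8 assembly factors of complex I, 8 genes of complex II and its assembly, 8 of complex III, 16 of complex IV, and 17 of complex V. Cox8b and Cox8c, with 15 UMIs each, and a second entry of Atp5o, with 2 UMIs, fell under the limit.

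Single-cell RNA sequencing was done on GFP+ cells sorted from L4-5 DRGs of PirtEGFPf mice, which are heterozygous for a farnesylated EGFP put in place of the Pirt coding sequence, on a C57BL/6 background. The sort therefore followed the promoter of Pirt, and Pirt itself fell after surgery in these neurons, from 584.4 and 576 CPM (UMIs of a gene scaled to a fixed library total, 1e6) in Male-Sham and Female-Sham to 399 and 415 CPM in Male-CCI and Female-CCI. The mice were 7 to 8 weeks old and were killed on day 7 after CCI (chronic constriction injury) on both sides, in which nylon was tied loosely around the sciatic nerve, or after sham surgery. Each of the 4 libraries pooled 20 DRGs of 5 mice, and sets of 4 values below run from Male-Sham and Female-Sham to Male-CCI and then Female-CCI. Littermates shared 1 kind of surgery whatever their sex, so litter and surgery cannot be told apart. The 2 replicates of each surgery were its library from males and its library from females, and the p-values measure only the spread between these pools.

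Oxidative phosphorylation passes electrons from NADH and succinate through complexes I to IV of the inner mitochondrial membrane and uses the proton gradient they build to make ATP at complex V. The mitochondrial genome supplies core subunits of complexes I, III, IV, and V and is transcribed as long precursors from which the single mRNAs are cut, whereas all of complex II and the many small accessory subunits come from nuclear genes that are imported as proteins. Sensory neurons supply mitochondria to axons of great length, and neurons as a class depend heavily on this pathway for ATP.

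The libraries held 4019 to 8035 cells and 195684124 to 237069156 UMIs before filters, and 2947 to 5548 cells after them, of which 2817 to 5398 were neurons with 159902783 to 189489772 UMIs. Cells with over 10% mitochondrial UMIs were removed, and this limit alone took out 7.32%, 4.43%, 6.50%, and 8.49% of otherwise accepted cells. Between 215 and 513 cell barcodes were shared by each pair of libraries. The neuronal markers Tubb3, Rbfox3, Uchl1, Snap25, Isl1, Prph, Avil, and Pirt summed to 11491, 11434, 14098, and 13440 CPM in the cells taken as neurons. Markers of satellite glial cells (SGCs) summed to 1875, 2271, 1334, and 1565 CPM there and were lower in the CCI libraries. The 8 immune markers summed to 8.18, 4.67, 34.3, and 27.9 CPM, of which Cx3cr1 alone was at 0.462, 2.20, 28.6, and 21.5 CPM. Csf1r was at 0.327, 0.253, 1.94, and 1.30 CPM, and the other 6 immune markers were not higher in both CCI libraries. The part of these markers in the results below was not tested. Sprr1a, an injury-induced gene of the neurons, was at 45.4, 102, 1926, and 1445 CPM.

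Over all neurons, the summed level of the mitochondrial genes was higher after CCI in both sexes, and that of the nuclear members was lower. The 13 mitochondrial genes took 4.18% and 4.41% of neuronal UMIs in Male-Sham and Female-Sham and 4.73% and 4.78% in Male-CCI and Female-CCI. The 95 nuclear members took 4.98% and 5.15% in the sham libraries and 4.23% and 4.18% in the CCI libraries. The sham and CCI libraries did not overlap in either sum. Neurons held 0.839 and 0.855 mitochondrial UMIs per nuclear member UMI after sham surgery, and 1.12 and 1.14 after CCI. On the log2 scale the change from sham to CCI was 0.15 for the mitochondrial sum, -0.27 for the nuclear sum, and 0.42 for their ratio, each with p = 0.33 in a two-sided exact permutation test, the smallest p that 2 against 2 libraries allow. With at most 5% mitochondrial UMIs per cell the mitochondrial change was 0.09 and the ratio change 0.37, and without the barcodes shared between libraries the nuclear change was -0.23 and the ratio change 0.39. In sums over neurons, fewer cells of a type and less RNA per cell cannot be told apart.

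The lower nuclear sum was spread over the complexes. Complex I transcripts made up 1.87% and 1.92% of neuronal UMIs in the sham libraries and 1.52% in both CCI libraries. Complex IV held 1.34% and 1.39% against 1.18% and 1.15%, and complex V 1.19% and 1.22% against 1.02% and 1.00%. Complex III was at 0.455% and 0.481% against 0.389% and 0.385%. Complex II, the only complex without a mitochondrial gene, held 0.0897% and 0.0893% against 0.0813% in both CCI libraries. No group of subunits overlapped between surgeries. Cytosolic ribosomal protein transcripts, another abundant and short class, were at 7.03%, 7.43%, 7.38%, and 7.58%, and overlapped.

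Single genes were tested on UMIs summed per library by edgeR's quasi-likelihood test with TMM scaling, and a gene was called when its Benjamini-Hochberg adjusted p over all genes was below 0.05. Of 17233 genes tested, 55% were called, 27.9% as higher and 27.1% as lower in CCI. Of the 13 mitochondrial genes, 8 rose and 2 fell, with a median log2 change of 0.31, against -0.01 over all genes. Of the 95 nuclear members, 53 fell, 8 rose, and 34 were not called, with a median of -0.20 and a range from -1.27 to 1.30. Most changes were small: with an absolute log2 change over 0.5 also required, which 27.8% of all genes met, 5 mitochondrial and 10 nuclear members were left. In both sexes 73 nuclear members were lower and 14 higher after CCI, and 8 went opposite ways. In the plot of changes by complex, most nuclear points lie below 0, most mitochondrial points lie above it, and the rare isoforms of complex IV lie farthest out.

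**Figure D1:**
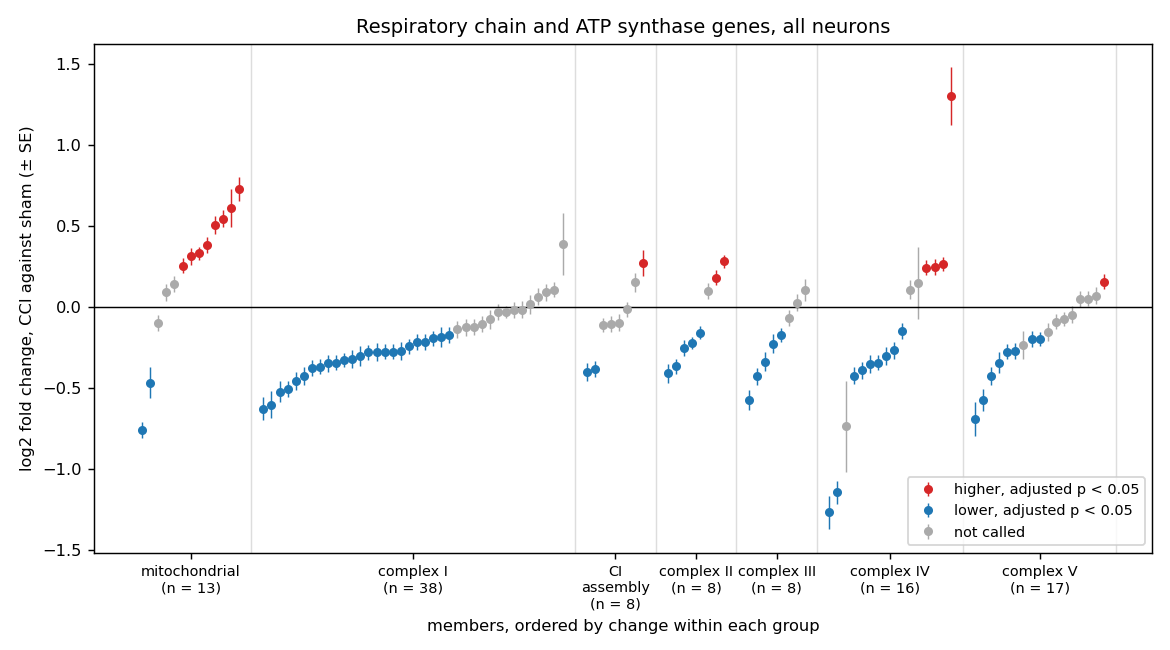
Log2 fold change of each member, CCI against sham, over all neurons (edgeR, bars are the SE), with members ordered by change within the mitochondrial group and each nuclear group. Of the mitochondrial genes 8 are called higher and 2 lower, and of the nuclear members 53 are called lower and 8 higher.

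Among the mitochondrial genes of complex I, 6 of 7 rose. mt-Nd3 was at 386, 442, 669, and 653 CPM (log2 change 0.73, SE 0.07, edgeR adjusted p = 0.00031). mt-Nd2 was at 1338, 1413, 1898, and 1966 CPM, a log2 change of 0.55 (SE 0.05), and mt-Nd1 at 1305, 1397, 1882, and 1803 CPM, a change of 0.50 (SE 0.06). Both CCI libraries were above both sham libraries for each of these genes. mt-Nd4 rose less, by 0.33 (SE 0.04) from 2517 and 2539 CPM to 3046 and 3072 CPM, and mt-Nd5 by 0.31 (SE 0.05). mt-Nd6, the only protein gene on the other strand, was at 12.2, 14.4, 17.8, and 21.4 CPM and rose by 0.61 (SE 0.12).

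The gene that fell was mt-Nd4l, at 354, 366, 202, and 207 CPM, a log2 change of -0.76 (SE 0.05, edgeR adjusted p = 5.1e-05). It lies at chrM:9877-10173 on the heavy-strand transcript (GRCm38) and ends 7 bases inside mt-Nd4 (chrM:10167-11544), with which it shares 1 bicistronic mRNA. mt-Atp8, the other gene that fell, lies at chrM:7766-7969 and shares its last 43 bases with mt-Atp6 (chrM:7927-8607). Both are shown because each fell while its partner on the same mRNA was not called lower, and capitals mark the bases that both genes of a pair share.
mt-Nd4l: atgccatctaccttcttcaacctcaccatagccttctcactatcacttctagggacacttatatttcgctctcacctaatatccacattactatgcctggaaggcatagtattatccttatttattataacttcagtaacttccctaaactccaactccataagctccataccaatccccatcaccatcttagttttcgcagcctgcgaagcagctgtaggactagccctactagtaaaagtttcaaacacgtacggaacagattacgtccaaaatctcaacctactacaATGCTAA
mt-Atp8: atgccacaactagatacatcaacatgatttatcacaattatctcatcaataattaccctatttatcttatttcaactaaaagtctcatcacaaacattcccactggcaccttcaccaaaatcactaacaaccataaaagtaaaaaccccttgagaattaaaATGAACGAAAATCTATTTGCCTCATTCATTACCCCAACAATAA
Reads within the shared bases cannot be told apart between the genes of a pair. The libraries count 3' tags, and which sites within these mRNAs gave the upstream gene's UMIs was not tested.

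mt-Atp8 was at 134, 150, 90.6, and 107 CPM, a log2 change of -0.47 (SE 0.10, edgeR adjusted p = 0.0077). mt-Atp6 was at 10721, 11413, 10971, and 11716 CPM, and its groups overlapped (0.09, SE 0.05, adjusted p = 0.18). Set as a ratio within each library, which needs no scaling, there were 14.1, 14.4, 6.63, and 6.74 mt-Nd4l UMIs for 100 mt-Nd4 UMIs. For mt-Atp8 there were 1.25, 1.32, 0.826, and 0.916 UMIs for 100 of mt-Atp6. The CCI libraries were lower for both pairs, and nearly equal between the sexes for the first.

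The other mitochondrial genes of the chain encode core subunits of complexes III and IV. mt-Co3 rose by 0.38 (SE 0.05) from 6212 and 6684 CPM to 8025 and 8124 CPM, and mt-Co2 by 0.25 (SE 0.05) from 7440 and 7928 CPM to 8787 and 8858 CPM. mt-Co1 was at 6021, 6457, 6721, and 6510 CPM (0.14, adjusted p = 0.056), and it passed the test without the Female-Sham library (0.19). mt-Cytb, the cytochrome b of complex III, was at 5034, 4914, 4617, and 4306 CPM, a log2 change of -0.10 with adjusted p = 0.12. With at most 5% mitochondrial UMIs per cell, mt-Cytb was called lower, at -0.17. The mitochondrial genes thus did not move as a block.

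Of the 38 nuclear genes of complex I, 24 fell. Ndufv3, an accessory subunit of the NADH-oxidizing module, was at 642, 687, 436, and 390 CPM (log2 change -0.63, SE 0.07, edgeR adjusted p = 0.00049). Ndufa3, an accessory subunit of the membrane arm, was at 224, 256, 159, and 145 CPM (-0.60, SE 0.08), and Ndufa1, needed for assembly of that arm, at 340, 370, 244, and 230 CPM (-0.53, SE 0.07). For all 3 genes every CCI library was below every sham library. Ndufa4, now known to sit in complex IV, went from 2862 and 2990 to 2230 and 2252 CPM (-0.33), Ndufb8 from 865 and 842 to 641 and 652 CPM (-0.34), and Ndufs5 from 928 and 948 to 753 and 771 CPM (-0.24). The hypoxia-related paralog of Ndufa4, Ndufa4l2, was at 0.320, 0.338, 0.40, and 0.432 CPM and not called. Of the 7 nuclear core subunits, which carry the catalytic centers, 3 fell, with a median of -0.14, and of the 29 accessory subunits 20 fell, with a median of -0.24. Ndufs1, the largest core subunit, was at 53.1, 51.9, 49.96, and 48.9 CPM and was not called.

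Of the 8 assembly factors of complex I, Ndufaf8 and Ndufaf3 fell and Ndufaf4 rose. Ndufaf8 was at 97.2, 105, 73.1, and 73.9 CPM (-0.41) and Ndufaf3 at 99.2, 103, 74.7, and 74.5 CPM (-0.38). Ndufaf4 was at 54.2, 49.8, 64.7, and 56.0 CPM, a change of 0.27 that lost its call without Male-CCI (0.16) or without Female-Sham (0.21). Ndufaf2 (81.4, 82.5, 72.0, and 73.8 CPM) and Ndufaf5 (32.3, 31.3, 35.6, and 32.3 CPM) were not called, and the groups overlapped for Ndufaf5, which passed the test without Female-CCI (0.22).

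Complex II moved both ways. Its flavoprotein Sdha fell from 112 and 111 to 91.3 and 88.5 CPM (-0.25), and the membrane anchor Sdhd from 109 and 103 to 79.0 and 78.6 CPM (-0.37). The iron-sulfur subunit Sdhb was at 323, 328, 338, and 332 CPM and was not called, and the anchor Sdhc rose slightly, from 68.2 and 68.3 to 76.0 and 72.8 CPM (0.18). Among the factors that mature the complex, Sdhaf4 fell (148, 149, 103, and 112 CPM, -0.41), as did Sdhaf3 (-0.22), while Sdhaf1, which serves Sdhb, rose (41.4, 40.8, 46.9, and 49.2 CPM, 0.28).

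Of 8 complex III genes, 5 fell. The small subunit Uqcr11 was at 798, 875, 554, and 526 CPM (-0.58, SE 0.06), and Uqcrfs1, the Rieske iron-sulfur protein, at 230, 222, 165, and 157 CPM (-0.43, SE 0.05). Uqcrh, the hinge protein, fell by 0.17 on the log2 scale, from 926 and 938 to 792 and 799 CPM, and lost its call without Male-CCI (-0.17), Female-CCI (-0.18), or Female-Sham (-0.16). Uqcrq overlapped between surgeries at 950, 1017, 953, and 973 CPM and was not called.

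Complex IV held the largest changes in both directions, and they lay in its rare isoforms. Cox4i2, an isoform of the regulatory subunit IV, was at 3.69, 3.63, 1.49, and 1.42 CPM (-1.27, SE 0.10, edgeR adjusted p = 0.00012). Cox7a1, the heart and muscle isoform of subunit VIIa, was at 7.99, 8.05, 3.46, and 3.51 CPM (-1.15, SE 0.07). Cox6a2, the heart and muscle isoform of subunit VIa, was at 0.924, 0.723, 2.16, and 1.74 CPM (1.30, SE 0.18). The CCI libraries stood apart from the sham libraries for all 3.

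The common partners moved less. Cox4i1 rose from 1295 and 1336 to 1488 and 1506 CPM (0.24), Cox7a2 fell from 1284 and 1321 to 962 and 905 CPM (-0.42), and Cox6a1 overlapped between surgeries at 587, 605, 641, and 594 CPM. Cox8a (2304, 2434, 1801, and 1789 CPM, -0.34), Cox7c (1461, 1551, 1165, and 1107 CPM, -0.35), Cox6c (1669, 1796, 1369, and 1329 CPM, -0.31), and Cox6b1 (1261, 1324, 1049, and 1016 CPM, -0.27) fell, as 9 of 16 genes of the complex did. Its testis isoform Cox6b2 was at 0.672, 0.971, 0.787, and 0.976 CPM and was not called, but passed the test at 0.66 without the neuronal clusters rich in the SGC gene Fabp7. In the non-neuronal cells of the sort Cox6b2 was far higher, at 33.5, 36.6, 34.0, and 37.7 CPM. The part of RNA from such cells in its neuronal level was not tested. Cox5a, a subunit next to the catalytic core, and Cox7a2l, which links complexes III and IV, rose by 0.27 and 0.25. Both were looked up as the other genes of the complex called higher, after their values were seen.

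In complex V, 8 of 17 genes fell and 1 rose. Usmg5, a small membrane subunit that holds ATP synthase dimers, was at 712, 752, 481, and 391 CPM (-0.69, SE 0.10, edgeR adjusted p = 0.0026). Atp5e, the epsilon subunit of the rotor stalk, was at 809, 897, 568, and 532 CPM (-0.58, SE 0.07), and the membrane subunit Atp5j2 at 995, 1058, 752, and 720 CPM (-0.43). The stalk subunit Atp5h fell by 0.20 on the log2 scale, from 1147 and 1165 to 961 and 979 CPM, and Atp5g1, a copy of the ring subunit, was not called at 1154, 1156, 1047, and 1065 CPM. The gene that rose was Atp5b, the catalytic beta subunit, at 584, 590, 633, and 626 CPM (0.16), named after its values were seen.

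The nuclear members that fell tended to have short mRNAs. Below 600 bases of the longest annotated transcript, 15 of 20 members fell, at 600 to 1000 bases 21 of 32, at 1000 to 2000 bases 10 of 28, and from 2000 bases on 7 of 15. Of other genes in the same bins, 119 of 465, 309 of 1125, 1040 of 3594, and 3151 of 11920 fell. Their median log2 change was -0.11 in the shortest bin and 0.01 in the longest. Across the 95 genes, which are not independent replicates and share their libraries, the log2 change and the log of the length gave r = 0.26 and rho = 0.36. Over 17104 other genes the values were r = -0.04 and rho = 0.03, and over 75 cytosolic ribosomal protein genes r = 0.28 and rho = 0.30. In the Sprr1a- neurons defined below, rho was 0.45 over nuclear members and 0.20 over 16278 other genes. In the classes named there, rho over other genes ran from -0.02 (NF2-like) to 0.35 (cLTMR-like), against 0.48 and 0.34 over members. These are descriptions without a test, and the part of transcript length or of RNA integrity in the changes was not tested.

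Neurons were then split by Sprr1a. A neuron was Sprr1a+ when its normalized value (natural log scale) was above 1, and this held for 42, 144, 1467, and 1789 neurons. Sprr1a- neurons of CCI ganglia, 1350 and 1848 cells, were compared with the 3239 and 5254 of sham ganglia within each class. Classes were named from marker genes of the clusters and are written with "-like": NP (nonpeptidergic), PEP (peptidergic), NF (neurofilament), cLTMR (C-fiber low-threshold mechanoreceptor), and CCI-ind (CCI-induced).

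In sham ganglia, as a description, NF1-like neurons carried the highest share of both genomes' transcripts. Nuclear members took 8.51% and 8.46% of their UMIs in Male-Sham and Female-Sham, followed by PEP5-like neurons with 6.31% and 6.64%. NF2-like (5.36% and 5.39%) and cLTMR-like neurons (5.18% and 5.55%) came next and overlapped. The other 6 classes lay between 4.29% (PEP2-like) and 4.83% (NP2-like) on average, and neighbours in their order overlapped. The mitochondrial share was 5.85% and 5.91% in NF1-like neurons, 4.69% and 5.24% in cLTMR-like, and 4.65% and 4.93% in PEP5-like, the last pair of classes overlapping. It was lowest in NF2-like neurons, at 3.43% and 3.51%. NF1-like neurons had the highest mean of 71 of 95 nuclear members, for 67 of them without overlap with the next class, and of 11 of 13 mitochondrial genes. With at most 5% mitochondrial UMIs per cell, the mitochondrial share of NF1-like neurons was 4.16%, below that of cLTMR-like neurons at 4.32%. This limit picks cells by the very share that is ranked, so it cannot show whether the order holds. NF1-like neurons also had too few cells under it to be fitted.

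The isoforms of complex IV had the sharpest class pattern. In sham ganglia Cox7a1 was at 43.3 and 43.6 CPM in NF1-like and 35.5 and 38.8 CPM in NF2-like neurons, against 8.06 and 8.23 CPM over all Sprr1a- neurons. Cox6a2 was at 8.74 and 9.31 CPM in NF1-like neurons and 0.171 and 0.192 CPM in NF2-like neurons. Cox4i2 was highest in PEP5-like neurons, at a mean of 8.23 CPM, and in PEP3/4-like neurons, at 7.13 and 6.51 CPM.

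After CCI the ratio of mitochondrial to nuclear member UMIs was higher in Sprr1a- neurons of every class, with no overlap between surgeries. Its log2 change ran from 0.30 in cLTMR-like to 0.70 in NF2-like neurons, which went from 0.640 and 0.651 to 1.02 and 1.08. NP3-like neurons had the highest ratio in sham, 0.989 and 0.970, and reached 1.32 and 1.19. The 2 parts contributed unequally: the mitochondrial sum changed by 0.11 in cLTMR-like and 0.51 in NF2-like neurons, and the nuclear sum by -0.10 in NF1-like and -0.33 in PEP5-like neurons. Each of these has an exact permutation p of 0.33, the smallest allowed. The ratio thus moved in Sprr1a- neurons, which may hold Sprr1a UMIs below the limit, and it moved outside the neurons as well. In the non-neuronal cells of the same libraries (190, 150, 130, and 112 cells) it was 2.05, 2.21, 2.88, and 2.80, a log2 change of 0.41, and in Sprr1a+ neurons it was 0.834, 0.840, 1.11, and 1.12.

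**Figure D2:**
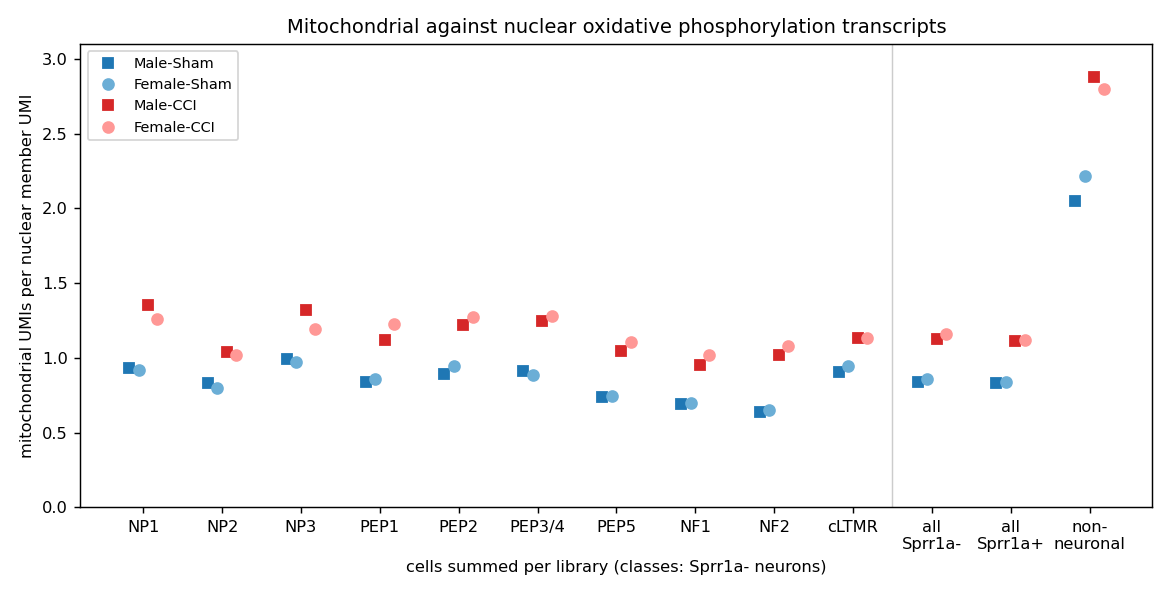
Mitochondrial UMIs per UMI of the 95 nuclear members in each library (squares male, circles female, blue sham, red CCI), for Sprr1a- neurons of 10 classes, all Sprr1a- and Sprr1a+ neurons, and non-neuronal cells. Both CCI libraries lie above both sham libraries in every set, and the non-neuronal cells lie highest at 2.05 to 2.88.

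Gene by gene, the mitochondrial changes of Sprr1a- neurons were alike in direction across classes and unlike in size. mt-Nd1, mt-Nd2, mt-Nd3, mt-Nd4, and mt-Co3 rose in 10 of 10 classes, and mt-Nd4l and mt-Atp8 fell in 9 of 10, with NF2-like neurons as the class where neither was called. With at most 5% mitochondrial UMIs per cell, where NF1-like neurons were not fitted, mt-Nd1, mt-Nd2, and mt-Nd3 rose in 8 of 9 classes and mt-Nd4 and mt-Co3 in 6 of 9, and none of these 5 genes was called in NP1-like neurons. Without Female-CCI mt-Nd4 rose in 6 of 10 classes, and without Male-CCI mt-Atp8 fell in 5 of 10. With any Sprr1a UMI counted as Sprr1a+, mt-Co3 rose in 6 and mt-Atp8 fell in 5 of the 9 classes fitted. In each of these fits the change of the 5 rising genes was positive in every class. The background of called genes was 4.75% in NP1-like, 15% in NP2-like, 6.61% in NP3-like, 14.8% in PEP1-like, 12.1% in PEP2-like, 12.6% in PEP3/4-like, 10.2% in PEP5-like, 8.08% in cLTMR-like, 2.32% in NF2-like, and 1.75% in NF1-like neurons. In the same order 7, 8, 8, 11, 10, 11, 8, 7, 8, and 11 of 13 mitochondrial genes were called.

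Several of the largest called rises were in neurofilament classes. In NF2-like neurons mt-Nd3 went from 324 and 395 to 695 and 734 CPM (log2 change 1.04, SE 0.10, edgeR adjusted p = 0.0003), mt-Nd1 from 1129 and 1172 to 2195 and 2290 CPM (1.01), and mt-Nd2 from 1120 and 1149 to 2097 and 2106 CPM (0.94). In NF1-like neurons mt-Nd6 was at 4.25, 3.69, 11.0, and 7.31 CPM (1.28, SE 0.26, adjusted p = 0.030), mt-Nd3 at 501, 630.1, 1025, and 1027 CPM (0.90), and mt-Nd2 at 1783, 1940, 3261, and 3412 CPM (0.88). In PEP1-like neurons mt-Nd3 was at 349, 405, 676, and 716 CPM (0.91). mt-Nd4l fell most in NP2-like neurons, at 307, 309, 175, and 175 CPM (-0.84), and least in NF2-like neurons (-0.36).

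**Figure D3:**
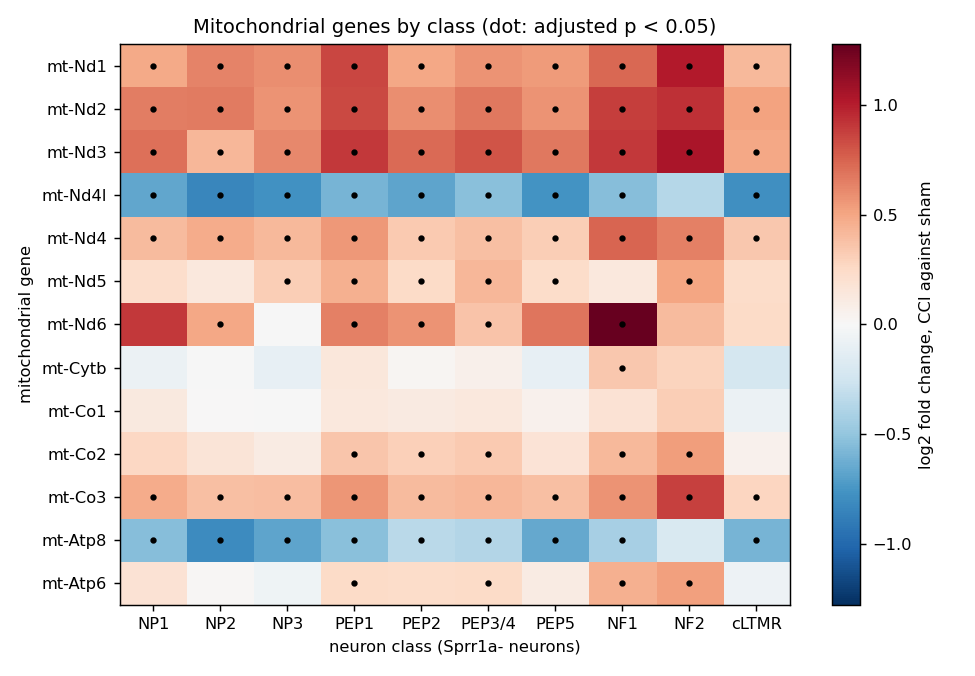
Log2 fold change of the 13 mitochondrial genes (rows) between CCI and sham in the Sprr1a- neurons of 10 classes (columns), red higher and blue lower in CCI, with a dot where the edgeR adjusted p is below 0.05. mt-Nd1, mt-Nd2, mt-Nd3, mt-Nd4, and mt-Co3 are red with a dot in 10 of 10 classes, and mt-Nd4l and mt-Atp8 are blue in every class and lack a dot in NF2-like neurons.

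The pair ratios gave the same picture without scaling. In Sprr1a- neurons the number of mt-Nd4l UMIs for 100 of mt-Nd4 lay between 13.1 and 15.3 in every sham library and class and between 5.49 and 7.77 in every CCI library and class, NF2-like neurons included (13.1, 14.0, 7.42, and 6.12). In the non-neuronal cells it was 19.3, 22.9, 9.45, and 10.1. The mt-Atp8 to mt-Atp6 ratio was lower in CCI in every class too, from 0.956, 1.02, 0.507, and 0.614 for 100 in NP2-like neurons to 1.80, 1.86, 1.18, and 1.20 in PEP3/4-like neurons. In Sprr1a+ NP1-like neurons the mt-Atp8 ratio overlapped between surgeries.

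**Figure D4:**
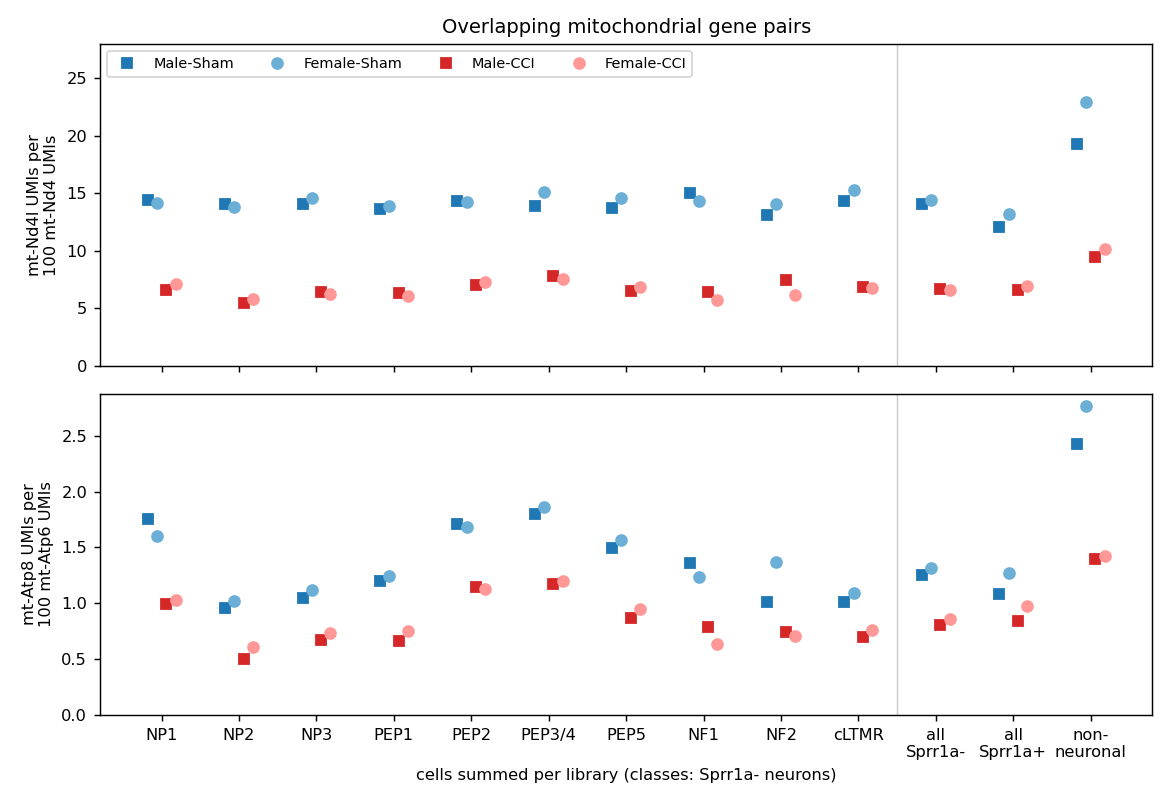
UMIs of mt-Nd4l for 100 UMIs of mt-Nd4 (top) and of mt-Atp8 for 100 of mt-Atp6 (bottom) in each library (squares male, circles female, blue sham, red CCI), for the same cell sets. The sham and CCI libraries do not overlap in any set shown, and the first ratio differs little between neuron classes.

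Most nuclear members that were called in a class were lower, and each number is given beside the share of all genes called there. Of the members tested, 17 of 89 were called in NP1-like neurons, with every one of them lower, against 4.75% of all genes, and 44 of 93 in NP2-like, with 35 lower, against 15%. The numbers were 33 of 91 in NP3-like (32 lower, against 6.61%), 25 of 92 in PEP1-like (22 lower, against 14.8%), and 35 of 91 in PEP2-like neurons (32 lower, against 12.1%). They were 37 of 91 in PEP3/4-like (36 lower, against 12.6%), 58 of 91 in PEP5-like (58 lower, against 10.2%), and 40 of 91 in cLTMR-like neurons (39 lower, against 8.08%). In NF1-like neurons 4 of 93 were called, each of them lower, against 1.75% of all genes, and in NF2-like neurons 10 of 91, 8 of them lower, against 2.32%. Member medians ranged from -0.30 in PEP5-like to 0.00 in NF1-like neurons, where those of all genes tested were within 0.01 of 0. Of the 89 members tested in all classes, 39 had a negative change in every class, 15 were called lower in at least 8 classes, 21 were called in no class, and 4 were called higher in at least 2.

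These counts depend on single libraries. Without Male-CCI, 23 nuclear members were called in PEP2-like, 9 in PEP3/4-like, 33 in NF2-like, 2 in NF1-like, and 10 in cLTMR-like neurons. Without Female-CCI, 38 were called in NP1-like, 32 in PEP5-like, 1 in PEP3/4-like, 26 in NF2-like, 2 in NF1-like, and 2 in cLTMR-like neurons. Without Male-Sham, 3 were called in NP1-like, 15 in NP3-like, and 4 in NF2-like neurons. Without Female-Sham, 2 were called in NP1-like, 27 in NP2-like, 2 in NP3-like, 7 in PEP1-like, 23 in PEP2-like, 24 in PEP3/4-like, and 2 in each of the NF1-like and NF2-like classes. The mitochondrial numbers moved too. They were 7 in PEP3/4-like, 7 in NF1-like, and 2 in cLTMR-like neurons without Male-CCI, and 6 in PEP2-like, 4 in PEP3/4-like, 5 in NF1-like, 5 in PEP5-like, and 1 in cLTMR-like neurons without Female-CCI. They were 2 in NP1-like, 5 in NP3-like, and 5 in NF2-like neurons without Male-Sham, and 2 in NP1-like and 5 in NP3-like neurons without Female-Sham.

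Usmg5 and Atp5e fell in 10 of 10 classes. Usmg5 was at 918, 992, 553, and 445 CPM in PEP5-like neurons (-0.97, SE 0.10, edgeR adjusted p = 5.8e-05) and at 1529, 1603, 1054, and 1053 CPM in NF1-like neurons (-0.53, SE 0.07, adjusted p = 0.0027), its ends of the range. Ndufa3, Ndufa1, Ndufv3, Uqcr11, and Cox7c fell in 9 of 10. Ndufa3 was at 272, 282, 182, and 148 CPM in PEP5-like neurons (-0.78) and at 186, 216, 133, and 126 CPM in cLTMR-like neurons (-0.69). Ndufv3 in NP1-like neurons was at 684, 761, 459, and 432 CPM (-0.71). In each of these cases both CCI libraries were below both sham libraries.

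Isoforms of complex IV were again among the largest changes. Cox7a1 fell in Sprr1a- NF1-like neurons from 43.3 and 43.6 to 22.9 and 20.7 CPM (-0.94, SE 0.11, edgeR adjusted p = 0.0018), in NF2-like neurons from 35.5 and 38.8 to 19.8 and 16.1 CPM (-1.01, SE 0.16), and in PEP5-like neurons from 9.56 and 10.5 to 4.70 and 4.83 CPM (-1.11, SE 0.22). Cox4i2 fell in PEP3/4-like neurons from 7.13 and 6.51 to 4.28 and 2.29 CPM (-1.09, SE 0.23). Among the members that rose, Cox7a2l was called in 6 classes.

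Whether the CCI effect differed between classes was tested in 1 fit over the sums of Sprr1a- neurons per class and library, with an F test of the class by surgery terms. Of 14927 genes, 11.5% were called, and of the members 12 of 13 mitochondrial and 49 of 95 nuclear genes. mt-Atp6 differed most (edgeR adjusted p = 1.57e-08): its change was 0.53 in NF2-like and 0.46 in NF1-like neurons and -0.06 in cLTMR-like neurons. mt-Nd1 ranged from 0.41 in cLTMR-like to 1.01 in NF2-like neurons (adjusted p = 6.8e-07). Leaving out 1 library left 7 (without Female-CCI) to 11 mitochondrial genes called. For nuclear members it left 38 without Female-CCI, 24 without Male-CCI, 4 without Male-Sham, and 2 without Female-Sham. mt-Atp6, mt-Nd1, mt-Co3, mt-Nd2, and the nuclear Cox6c were called in all of these fits. Sums of 1 library share that library, and cells were put in classes by the same data.

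Sprr1a+ neurons of CCI ganglia were compared with Sprr1a- neurons of sham ganglia in the classes where every sum held at least 10 cells, NP1-like (98 and 113 Sprr1a+ cells in Male-CCI and Female-CCI), NF2-like (65 and 67), and NF1-like (55 and 32). With 8 such cells in each library, PEP5-like neurons were not tested. These comparisons use the same sham cells as those of Sprr1a- neurons. TMM scaling mattered here: fitted changes lay above those of CPM by a median of 0.06 in NP1-like, 0.25 in NF2-like, and 0.32 in NF1-like neurons. Changes in both NF classes are therefore relative to the other genes, and a small rise on the fitted scale can be a fall in CPM.

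In NP1-like neurons 52.1% of 11378 genes were called, and of the members 8 mitochondrial genes rose and 3 fell and 11 nuclear genes rose and 46 of 91 fell. Ndufv3 was at 684, 761, 341, and 328 CPM (-1.05, SE 0.09, edgeR adjusted p = 2.7e-15), and the CCI libraries lay far below the sham libraries. The assembly factor Ndufaf8 was at 91.3, 91.2, 43.6, and 51.3 CPM (-0.89), and Atp5s, a factor tied to ATP synthase, at 28.8, 31.5, 15.5, and 16.7 CPM (-0.84). Ndufaf4 rose from 39.4 and 43.7 to 77.5 and 64.4 CPM (0.84). Cox6b2 rose from 1.56 and 1.43 to 4.30 and 4.13 CPM (1.53, SE 0.47), on 6, 4, 30, and 26 UMIs. It passed the filter on low counts through its CCI sums, so this call carries little weight. Against Sprr1a- NP1-like neurons of the CCI libraries, with 2 and 3 UMIs, it was not called (1.62, edgeR adjusted p = 0.061). mt-Nd4l fell from 338 and 328 to 147 and 156 CPM (-1.08). Cox6a2 had no UMI in the 2 sham sums and 15 and 6 UMIs in the CCI sums, and was too low to be tested.

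In NF1-like neurons 54.4% of 12104 genes were called, and the isoforms Cox7a1, Cox4i2, and Cox6a2 of complex IV were far lower in Sprr1a+ cells. Cox7a1 went from 43.3 and 43.6 CPM (560 and 449 UMIs) to 3.55 and 1.76 CPM (16 and 3 UMIs), a ratio of sham to CCI of 14.2 with an exact 95% interval of 9.04 to 23.7. Cox4i2 went from 48 and 30 UMIs to 0 in both CCI sums, at least 6.95-fold lower when set against 3 UMIs over both sums, and Cox6a2 from 8.74 and 9.31 CPM to 2.44 and 0 CPM, a ratio of 5.08 (2.78 to 10.3). These intervals cover counting error only.

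Core subunits fell there as well. Sdha was at 234, 238, 95.9, and 89.3 CPM (-1.01, SE 0.09, edgeR adjusted p = 7.1e-07), Ndufs1 at 95.9, 90.8, 43.9, and 48.2 CPM (-0.71), and Atp5a1, the alpha subunit of ATP synthase, at 890, 891, 435, and 452 CPM (-0.68). Neither surgery's libraries overlapped those of the other for these 3 genes. In total 38 of 92 nuclear members fell and 14 rose, among them Sdhaf1 (34.6, 35.4, 45.9, and 45.8 CPM, 0.72). Usmg5 was not called (0.03), although its CPM of 1529, 1603, 1299, and 1249 did not overlap. Of the mitochondrial genes 8 rose and 2 fell, with mt-Nd3 at 501, 630.1, 714, and 804 CPM (0.75) and mt-Atp8 at 193, 183, 86.3, and 108 CPM (-0.66). The mitochondrial sum overlapped between surgeries (log2 change 0.00 in CPM) while the nuclear sum changed by -0.43.

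NF2-like neurons had 50.9% of 11718 genes called, 10 mitochondrial genes as higher and 2 as lower, and 22 nuclear members as higher and 20 of 92 as lower. By DESeq2 the nuclear numbers were 22 and 13, and leaving out 1 library moved the total between 18 (without Male-Sham) and 56 (without Male-CCI), with 22 without Female-Sham. Cox7a1 went from 35.5 and 38.8 to 2.79 and 2.48 CPM, 13.9-fold lower (9.45 to 21.1). Cox4i2 had 22, 16, 1, and 0 UMIs, a ratio of sham to CCI of 36.0 with an interval of 6.08 to 1459. Cox6a2 moved the other way than in NF1-like neurons, with 1, 1, 14, and 15 UMIs, a ratio of CCI to sham of 15.3 (3.87 to 132). Sprr1a- NF2-like neurons held 1 Cox6a2 UMI in Male-CCI and 14 in Female-CCI (0.291 and 3.27 CPM). In Female-CCI the higher level was thus not limited to Sprr1a+ cells. Between the states of the CCI libraries Cox6a2 was not called in this class (0.97, edgeR adjusted p = 0.20). The difference between the classes in Cox6a2 was not tested. Cox4i1 rose from 1305 and 1344 to 1674 and 1604 CPM (0.56), and Sdha fell from 126 and 131 to 69.2 and 69.0 CPM (-0.64). Of the mitochondrial genes, mt-Nd3 was at 324, 395, 608, and 649 CPM (1.06) and mt-Nd1 at 1129, 1172, 1677, and 1666 CPM (0.79), with both CCI libraries above both sham libraries.

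**Figure D5:**
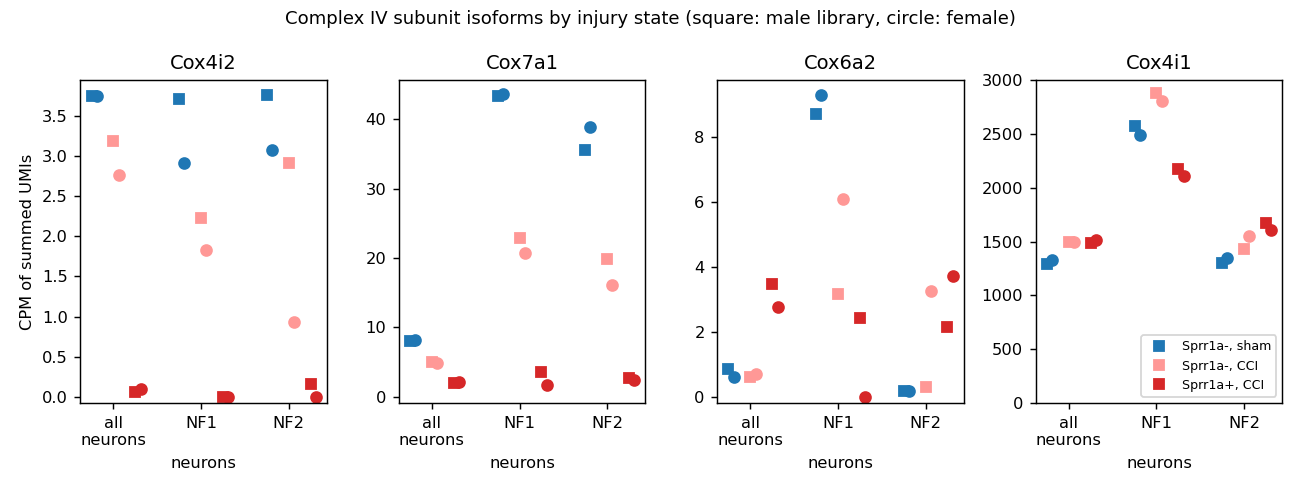
CPM of 4 complex IV isoform genes in Sprr1a- neurons of sham (blue), Sprr1a- neurons of CCI (pink), and Sprr1a+ neurons of CCI (red), for all neurons and for NF1-like and NF2-like neurons, with squares for the male and circles for the female library. Cox7a1 in NF1-like neurons steps from 43.3 and 43.6 through 22.9 and 20.7 to 3.55 and 1.76 CPM, and Cox4i2 is at or near 0 in each set of Sprr1a+ neurons.

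Within the 2 CCI libraries, Sprr1a+ neurons were then set against Sprr1a- neurons of the same ganglia. Sums over all neurons pool the classes, so class makeup and injury state cannot be told apart in them. The sums of both genomes were lower in Sprr1a+ cells, by 0.19 and 0.18 (male and female, log2 of CPM) for mitochondrial genes and 0.16 and 0.13 for nuclear members, so the ratio moved by only -0.02 and -0.05. In NF1-like neurons both sums were lower by more, at -0.43 and -0.38 for mitochondrial genes and -0.33 in both sexes for nuclear members. In NF2-like neurons the mitochondrial sum was lower (-0.27 and -0.32) and the nuclear sum changed little (-0.02 and -0.08). The ratio change of 0.42 between surgeries, over all neurons, was not seen in size between the states of 1 pool, though the difference of these changes was not tested.

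Single genes were called for 74.3% of all genes, and of the nuclear members 32 were higher and 36 lower, around a median of 0.00. Fitted changes lay above those of CPM by a median of 0.17. With any Sprr1a UMI taken as Sprr1a+, 56 were higher and 14 lower, so the split depends on how injury is set. Cox4i2 was at 3.19 and 2.76 CPM in Sprr1a- and 0.0568 and 0.0992 CPM in Sprr1a+ neurons of Male-CCI and Female-CCI (-5.07, SE 0.27, edgeR adjusted p = 3.3e-08), on 238 and 219 against 5 and 8 UMIs. Cox7a1 was at 5.09 and 4.87 against 2.08 and 2.17 CPM (-1.06), and Cox6a2 at 0.603 and 0.694 against 3.48 and 2.77 CPM (2.43). Both libraries had the same direction for all 3. PEP5-like neurons, where Cox4i2 was highest after sham surgery, had too few Sprr1a+ cells to be tested. The part of class makeup in these differences was not tested.

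Among the more abundant members, Cox5a was at 1166 and 1155 CPM in Sprr1a- and 1492 and 1476 CPM in Sprr1a+ neurons (0.53), and Uqcrq at 838 and 815 against 1051 and 1129 CPM (0.57). The assembly factors Sdhaf1 (38.3 and 41.2 against 54.2 and 57.0 CPM, 0.66) and Ndufaf4 (53.5 and 46.6 against 74.3 and 65.3 CPM, 0.65) were higher, and Ndufaf3 was lower (95.9 and 92.3 against 56.7 and 57.0 CPM, -0.55). Sdha was lower (112 and 106 against 73.7 and 71.6 CPM, -0.41). Of the mitochondrial genes 5 were called higher and 6 lower, with all changes within 0.5. By DESeq2 2 were higher and 5 lower. mt-Nd2 went from 2184 and 2221 to 1654 and 1716 CPM (-0.21 as fitted), and mt-Co1, called higher at 0.18, was level in CPM (6667 and 6517 against 6767 and 6504).

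The same comparison was made within the NF1-like, NP1-like, and NF2-like classes. In each of them the share of nuclear members called was below that of all genes. In NF1-like neurons 53.8% of genes were called, and 32 of 91 nuclear members were lower and 11 higher. Cox7a1 was at 22.9 and 20.7 CPM in Sprr1a- and 3.55 and 1.76 CPM in Sprr1a+ cells (-2.57), Sdha at 223 and 221 against 95.9 and 89.3 CPM (-0.96), and Ndufs1 at 103 and 91.4 against 43.9 and 48.2 CPM (-0.82). Of the 3 mitochondrial genes called there, mt-Cytb changed most, at 11881 and 12151 against 8117 and 8107 CPM (-0.28 as fitted). Fitted changes again lay above those of CPM in both NF classes, so calls there are relative to the other genes. In NP1-like neurons, with 30.2% of genes called, 13 of 90 nuclear members were lower and 9 higher, among them Ndufaf4 (42.9 and 41.1 against 77.5 and 64.4 CPM, 0.82). The mitochondrial genes mt-Nd4l, mt-Atp8, mt-Nd2, mt-Nd5, and mt-Nd4 were called lower there, and mt-Nd4l changed most (-0.42). In NF2-like neurons, with 41.7% called, 5 of 91 nuclear members were lower and 11 higher, with Cox7a1 at 19.8 and 16.1 against 2.79 and 2.48 CPM (-2.56). There no mitochondrial gene was called.

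In the non-neuronal cells of the same sort, which were not tested and whose summed neuronal markers were at 757, 712, 540, and 1671 CPM, 7 mitochondrial genes were higher and 3 lower after CCI without overlap, of 13, and 3 nuclear members were higher and 56 lower, of 95. Of the 17233 genes tested in neurons, 18.5% were higher and 13.4% lower in this sense. mt-Nd4l was at 788, 926, 418, and 428 CPM, mt-Nd2 at 2228, 2523, 3693, and 3292 CPM, and Ndufv3 at 291, 329, 166, and 162 CPM. Usmg5 was at 233, 315, 162, and 166 CPM, and Cox4i2 at 7.94, 7.04, 1.31, and 1.64 CPM. The sham and CCI libraries did not overlap for these 5 genes, and they did for mt-Co1, at 9534, 10282, 10183, and 9924 CPM.

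Other genes around the pathway were counted over all neurons, where 27.9% of all genes rose and 27.1% fell. Of 14 regulators of mitochondrial biogenesis 3 rose, a share below that of all genes. They were the coactivator Ppargc1b (6.50, 5.81, 8.27, and 7.99 CPM, 0.46), the transcription factor Nrf1 (0.19), and the mitochondrial transcription factor Tfb2m (0.20). Of 25 assembly factors and cytochrome c, 4 rose and 13 fell, among them the copper chaperone Cox17 (130, 139, 81.0, and 75.8 CPM, -0.72), the ATP synthase factor Atpaf2 (39.5, 44.4, 22.4, and 24.7 CPM, -0.78), and Cox19 (86.8, 84.7, 113, and 114 CPM, 0.46). Of 10 genes of mitochondrial RNA handling, Mtpap and Tbrg4 rose, again a share below that of all genes. Of 12 genes of the tricarboxylic acid cycle 4 fell and 1 rose. Of 17 glycolytic genes 8 fell, with Aldoc at 85.8, 81.5, 38.5, and 37.1 CPM (-1.09), and 4 rose, with Hk2 at 1.21, 1.10, 2.43, and 2.57 CPM (1.17). Of 75 cytosolic ribosomal protein genes 38 rose and 12 fell, with a median of 0.16.

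In Sprr1a+ NF1-like neurons, where 54.4% of all genes were called, some of these genes were called in the other direction, and the difference between the fits was not tested. Of the 12104 genes tested there, 3210 rose and 3376 fell. Of 14 regulators 4 fell, a share near that of all genes. They were Ppargc1b (22.0, 16.9, 6.66, and 8.81 CPM, -1.09), the nuclear receptor Esrra (59.7, 55.5, 19.5, and 18.8 CPM, -1.25), the mitochondrial transcription factor Tfam (21.9, 21.6, 11.5, and 7.05 CPM, -0.77), and the mitochondrial polymerase Polg (21.8, 24.6, 9.54, and 17.0 CPM, -0.63). Of 12 cycle genes 7 fell, with Cs, the citrate synthase, at 157, 153, 78.6, and 70.5 CPM (-0.71). Hk2 was called lower there, at 4.48, 3.98, 0.222, and 0 CPM, and Aldoc was at 262, 203, 24.6, and 42.3 CPM (-2.60). Of 25 assembly genes 5 rose and 8 fell, and of 73 ribosomal protein genes 63 rose and 1 fell.

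The promoters of nuclear members, 250 bases before to 50 after the start, were taken from RefSeq (GRCm38.p6) and found for 80 of the 95. Motifs of factors known to serve respiratory genes were searched on both strands. The NRF1 motif (GCGC and TGCGC with 1 free base between them) was in 21 of 80 (26.25%), against 5.19% of 27025 genes with a promoter. The GABPA motif CCGGAAG was in 22 of 80 (27.5%), against 9.93%, and the YY1 motif AAGATGGCG in 8 of 80 (10.0%), against 1.64%. By call in all neurons, GABPA letters were in 16 of 49 promoters of members that fell, 1 of 5 that rose, and 5 of 26 not called, and NRF1 letters in 11, 1, and 9. A match of letters is a description and not a site. The 3 promoters shown belong to members with large falls and hold one of these motifs, in capitals, on the gene's strand.
Usmg5 (Atp5md in RefSeq, chr19:47090598-47090897, minus strand, GABPA letters reversed): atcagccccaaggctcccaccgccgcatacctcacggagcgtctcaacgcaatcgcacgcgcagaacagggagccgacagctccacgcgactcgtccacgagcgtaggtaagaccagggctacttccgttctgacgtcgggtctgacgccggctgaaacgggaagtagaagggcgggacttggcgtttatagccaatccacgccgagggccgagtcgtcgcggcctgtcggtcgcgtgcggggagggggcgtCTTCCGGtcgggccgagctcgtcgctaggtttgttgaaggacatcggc
Uqcr11 (chr10:80406772-80407071, minus strand, GABPA letters): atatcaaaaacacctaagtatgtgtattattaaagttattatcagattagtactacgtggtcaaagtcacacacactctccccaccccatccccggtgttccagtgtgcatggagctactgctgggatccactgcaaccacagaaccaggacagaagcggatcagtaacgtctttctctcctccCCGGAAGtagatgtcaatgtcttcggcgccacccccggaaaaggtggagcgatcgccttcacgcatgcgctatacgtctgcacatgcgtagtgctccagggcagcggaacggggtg
Ndufa11 (chr17:56717512-56717811, plus strand, NRF1 letters): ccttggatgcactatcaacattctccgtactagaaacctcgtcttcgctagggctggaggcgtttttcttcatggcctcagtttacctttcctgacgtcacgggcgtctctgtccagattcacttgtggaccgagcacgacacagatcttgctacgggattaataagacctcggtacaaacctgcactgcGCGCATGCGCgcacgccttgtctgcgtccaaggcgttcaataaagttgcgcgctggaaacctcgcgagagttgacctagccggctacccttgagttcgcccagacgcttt
Usmg5 and Uqcr11 are described above. Ndufa11, a membrane-arm subunit of complex I named for its motif after its values were seen, was at 795, 823, 552, and 544 CPM (-0.51, SE 0.05, edgeR adjusted p = 0.00021), and the CCI libraries lay below the sham libraries.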

How the data were processed

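GFP+ DRG cells of 4 pools were run on the 10x 3' v3 platform. The deposited matrices hold UMI counts per gene and cell that the authors made against mm10 with Cell Ranger, version 3.0.2 in the matrix headers and 2.1.1 in the submitters' notes. No deposited cell annotation was used. Cells with under 1500 genes or over 10% mitochondrial UMIs were removed, and so were the highest Scrublet scores (scanpy 1.11.5), in the number of the study's own list. Seurat 5.3.0 integrated the libraries (3000 genes, 20 components) and gave 31 clusters, 30 of them neuronal, named from fixed marker lists. CPM are the UMIs of a gene scaled to a total of 1e6 per sum.

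UMIs were summed per library and set of at least 10 cells and tested with edgeR 4.0.16 (robust quasi-likelihood, TMM, filterByExpr, Benjamini-Hochberg adjusted p below 0.05), which was checked on simulated data. DESeq2 1.42.0, other filters, limits, scalings, and each library left out were the alternatives. The members, gene lists, and tests were chosen with earlier results of these data known. Named genes were the mitochondrial genes, the 3 highest and 2 most changed called members of each complex, tissue-restricted isoforms with their partners, the 3 most changed called members per class, and Usmg5. Other genes are said to be named after their values were seen, or stand as examples of a count. Intervals are exact at 95% and cover counting error only. Counting could split reads of members with near-identical pseudogene copies. Positions and transcript lengths come from GENCODE M21 (GRCm38).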

Additional observations from a re-analysis of the deposited data

Results flagged for a closer look

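The CCI effect in Sprr1a- neurons differed between classes by the test of the class by surgery terms (edgeR quasi-likelihood, Benjamini-Hochberg adjusted) for 12 of 13 mitochondrial genes and 49 of 95 nuclear members, against 11.5% of all genes. The smallest adjusted p-values were those of mt-Atp6 (1.57e-08), mt-Nd1 (6.8e-07), and mt-Co3 (2.04e-06). All 3 rose most in NF2-like neurons, by 0.53 for mt-Atp6 and 1.01 for mt-Nd1 on the log2 scale. This class had the lowest mitochondrial share after sham surgery. That share and these changes use the same sham sums, so a low sham value enters both. Without Female-Sham, 2 nuclear members kept a call in this test, without Male-Sham 4, without Male-CCI 24, and without Female-CCI 38.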

How the results depend on the processing

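Below, pairs such as 7 to 4 give the number of members called as reported and under the alternative, and Sprr1a- neurons are meant where a class stands alone. The direction of every summed change stayed, and no gene named in the report reversed. With an absolute log2 change over 0.5 required, mitochondrial calls went in all neurons from 10 to 5, in cLTMR-like neurons from 7 to 3, NF1-like 11 to 7, PEP5-like 8 to 5, PEP3/4-like 11 to 4, PEP2-like 10 to 4, NP3-like 8 to 5, NP2-like 8 to 4, and NP1-like 7 to 4, in Sprr1a+ NP1-like 11 to 4 and NF1-like 10 to 6, and within CCI from 11 to 0. Nuclear calls went from 61 to 10 in all neurons, 40 to 4 (cLTMR-like), 10 to 3 (NF2-like), 4 to 2 (NF1-like), 58 to 20 (PEP5-like), 37 to 3 (PEP3/4-like), 35 to 3 (PEP2-like), 25 to 2 (PEP1-like), 33 to 2 (NP3-like), 44 to 3 (NP2-like), 17 to 6 (NP1-like), in Sprr1a+ neurons 57 to 26 (NP1-like), 52 to 12 (NF1-like), and 42 to 14 (NF2-like), and within CCI 68 to 10. The limit removes small changes by construction.

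With DESeq2, nuclear calls in NF1-like neurons went from 4 to 10 and mitochondrial calls within CCI from 11 to 7. With any Sprr1a UMI as Sprr1a+, nuclear calls were 6 in NP1-like, 16 in NP2-like, 9 in NP3-like, 40 in PEP1-like, 0 in NF1-like, 25 in cLTMR-like, and 29 in Sprr1a+ NF1-like neurons, and mitochondrial calls 4 in NP3-like and 2 in NF1-like neurons. With no filter on low counts, nuclear calls were 26 (NP1-like), 40 (PEP1-like), 12 (NF1-like), and 29 (NF2-like). With at most 5% mitochondrial UMIs, added for classes after seeing the data, mitochondrial calls were 2 (NP1-like) and 3 (NF2-like), and nuclear calls 0 (NF2-like). The summed mitochondrial change went from 0.15 to 0.089 and the ratio change from 0.42 to 0.37. The sham mitochondrial share became 4.32% (cLTMR-like), 3.21% (NF2-like), 4.16% (NF1-like), 4.17% (PEP5-like), 3.73% (PEP3/4-like), 3.65% (PEP2-like), 3.57% (PEP1-like), 3.95% (NP3-like), 3.52% (NP2-like), and 4.01% (NP1-like), and the nuclear share 5.52% (NF2-like) and 8.69% (NF1-like). Without shared barcodes, also added later, the nuclear change went from -0.27 to -0.23 and the ratio change to 0.39. The cause was not tested for any of these.

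Leaving out 1 library gave 5 to 10 mitochondrial and 2 to 6 nuclear calls in NF1-like neurons, 5 to 11 and 2 to 33 in NF2-like, 2 to 9 and 2 to 38 in NP1-like, 5 to 8 and 2 to 49 in NP3-like, 6 to 10 and 23 to 34 in PEP2-like, 4 to 11 and 1 to 40 in PEP3/4-like, 5 to 10 and 32 to 55 in PEP5-like, and 1 to 9 and 2 to 45 in cLTMR-like neurons. Nuclear calls ranged from 27 to 38 in NP2-like, 7 to 36 in PEP1-like, and 18 to 56 in Sprr1a+ NF2-like neurons, and the difference between classes from 7 to 11 mitochondrial and 2 to 38 nuclear calls. The summed changes ranged from 0.11 to 0.19 (mitochondrial), -0.29 to -0.25 (nuclear), and 0.40 to 0.43 (ratio). In such fits the lone library is assumed to vary like the other group.

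A sham and a CCI library of the same sex share only that label, which gives 2 pairs. The male minus female differences of the 2 surgeries correlated at r = 0.56 over all genes tested and 0.15 over members. With sex as a replicate block, nuclear calls went from 17 to 29 (NP1-like), 25 to 38 (PEP1-like), 4 to 22 (NF1-like), and 10 to 32 (NF2-like), and in all neurons to 68 with 10 mitochondrial calls.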
